A study of Homo sapiens with 72 samples.

Results

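The interferon-stimulated genes OAS1, OAS3, BST2, IFITM3, IFIT1, IFI6, ISG15, IRF1 and IRF9 were followed across all 24 groups of a UV time course in HEK293 cells. They are 9 of the 19324 genes in the count table and were picked out by symbol. Polyadenylated RNA was sequenced in HEK293 Flp-In T-REx, a human embryonic kidney line with adenoviral sequence and an integrated recombination site, as 4 lines. CSB_KO carries a knockout of CSB (gene ERCC6), which recognises RNA polymerase II stalled at DNA lesions, STK19_KO1 and STK19_KO2 are separate knockout clones of STK19, a protein of transcription-coupled repair, and WT is unedited. Each line was irradiated and sampled at 3 h, at 4 h and 20 h with ATRi (VE-821, 3 µM, an inhibitor of the damage-signalling kinase ATR), at 4 h and 20 h with its solvent DMSO, and at 0 h (untreated), with 3 replicates per group and 72 libraries in all. The sources used here do not state the UV dose and differ on whether times count from irradiation or from the addition of ATRi. There were no unirradiated 4 h or 20 h cells, so time in culture and UV cannot be told apart. CSB_KO was 1 clone and all edited lines shared the same WT, so clone and knockout cannot be told apart in CSB_KO.

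Interferons bind receptors on the cell surface and activate the kinases JAK1 and TYK2, which phosphorylate STAT2 among other proteins. STAT2 and IRF9 act in a complex that binds the interferon-stimulated response element (ISRE) in promoters. The gamma-activated site (GAS) is another promoter element of the interferon response, and IRF1 binds ISRE-like sequences itself. OAS1 and OAS3 make 2'-5' oligoadenylates when they bind double-stranded RNA and so activate RNase L. BST2 (tetherin) holds budding virions at the cell surface, IFITM3 blocks fusion of viral and cell membranes, and IFIT1 binds viral RNA that lacks cap methylation. ISG15 is a ubiquitin-like protein, and IFI6 is a small membrane protein with antiviral and antiapoptotic roles. Several of these genes can also be switched on without interferon, by IRF3, NF-kB or IRF1.

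In the count table's GRCh38 coordinates OAS1 (ENSG00000089127) lies on chromosome 12 at 112905856 to 112933219 and OAS3 (ENSG00000111331) next to it at 112938051 to 112976460. BST2 (ENSG00000130303) lies on chromosome 19 at 17402939 to 17405630, IFITM3 (ENSG00000142089) on chromosome 11 at 319676 to 329475, and IFIT1 (ENSG00000185745) on chromosome 10 at 89392546 to 89406487. IFI6 (ENSG00000126709) and ISG15 (ENSG00000187608) are on chromosome 1, at 27666064 to 27672212 and 1001138 to 1014540. IRF1 (ENSG00000125347) is on chromosome 5 at 132440440 to 132508719 and IRF9 (ENSG00000213928) on chromosome 14 at 24161234 to 24168043. The counts cover the annotated exons of each gene. In GENCODE 29 the exons of IRF9 overlap those of AL136295.5 on the same strand, so reads of this pair may not be told apart. Exons overlap on the opposite strand for IRF1 (C5orf56 and AC116366.3), ISG15 (AL645608.3), IFITM3 (AC136475.5) and OAS1 (AC004551.1), and reads of these pairs can be separated only if counting used strand, which is not stated.

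Promoter sequences show what the members share at their starts. RefSeq windows on GRCh38.p14, of 250 bases before and 50 bases after the gene start, were found for all 9 members and searched on both strands for the ISRE core GAAANNGAA and for the GAS letters TTCNNNGAA, which read the same on both strands. The ISRE core was present in 6 of the 9 windows (OAS3, BST2, IFITM3, IFIT1, IFI6 and ISG15), against 8.11% of all 35116 windows in the table. The GAS letters were present in 4 (OAS1, BST2, IRF1 and IRF9), against 7.66% of all windows. The 5 windows below are those of OAS3 and BST2, which lie furthest below WT in the STK19 knockouts, and of ISG15, IFIT1 and IRF1, which change with time or ATRi, with ISRE core and GAS letters in capitals. The windows of IFITM3 and IFI6, which also differ between lines, are not printed. In BST2 the upstream GAS match overlaps the first of its ISRE matches, and in BST2 and ISG15 neighbouring ISRE matches overlap each other.
OAS3 (chr12:112938224-112938523, plus strand): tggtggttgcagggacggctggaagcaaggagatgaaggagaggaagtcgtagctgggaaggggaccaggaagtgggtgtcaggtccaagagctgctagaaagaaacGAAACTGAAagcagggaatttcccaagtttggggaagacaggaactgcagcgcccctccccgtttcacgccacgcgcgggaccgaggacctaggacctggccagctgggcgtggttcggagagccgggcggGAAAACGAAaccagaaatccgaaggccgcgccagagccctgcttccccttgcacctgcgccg
BST2 (chr19:17405581-17405880, minus strand): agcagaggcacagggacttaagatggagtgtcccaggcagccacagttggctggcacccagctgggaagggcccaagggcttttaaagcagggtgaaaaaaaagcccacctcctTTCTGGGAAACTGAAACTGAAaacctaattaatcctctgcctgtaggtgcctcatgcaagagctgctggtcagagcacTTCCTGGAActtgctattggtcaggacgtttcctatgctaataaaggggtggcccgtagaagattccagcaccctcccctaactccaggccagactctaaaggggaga
ISG15 (chr1:1013247-1013546, plus strand): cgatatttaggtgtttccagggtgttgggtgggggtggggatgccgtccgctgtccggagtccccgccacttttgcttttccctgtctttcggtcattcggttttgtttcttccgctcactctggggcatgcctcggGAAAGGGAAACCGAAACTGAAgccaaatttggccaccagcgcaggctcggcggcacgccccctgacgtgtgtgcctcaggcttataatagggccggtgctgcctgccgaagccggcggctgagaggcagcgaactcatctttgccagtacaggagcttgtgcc
IFIT1 (chr10:89392373-89392672, plus strand): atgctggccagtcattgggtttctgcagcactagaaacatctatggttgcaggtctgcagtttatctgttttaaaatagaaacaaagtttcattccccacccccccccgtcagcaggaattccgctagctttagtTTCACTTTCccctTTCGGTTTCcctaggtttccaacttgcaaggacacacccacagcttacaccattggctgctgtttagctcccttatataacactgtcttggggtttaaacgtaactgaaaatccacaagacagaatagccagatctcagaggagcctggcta
IRF1 (chr5:132490724-132491023, minus strand): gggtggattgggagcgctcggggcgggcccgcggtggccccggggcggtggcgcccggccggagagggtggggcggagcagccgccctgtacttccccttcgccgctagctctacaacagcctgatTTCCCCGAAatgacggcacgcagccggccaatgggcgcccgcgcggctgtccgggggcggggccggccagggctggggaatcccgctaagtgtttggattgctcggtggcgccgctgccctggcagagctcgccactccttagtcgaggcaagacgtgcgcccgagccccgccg
OAS3 has ISRE cores at 143 and 12 bases before the start, ISG15 has 3 in a row from 113 bases before it, and IFIT1 has 2 on the opposite strand. IRF1 has no ISRE core in its window and 1 GAS match, 124 bases before the start. A match is a run of letters and not a binding site that was measured, and a window without a match may hold an element that these letters miss.

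**Figure D1:**
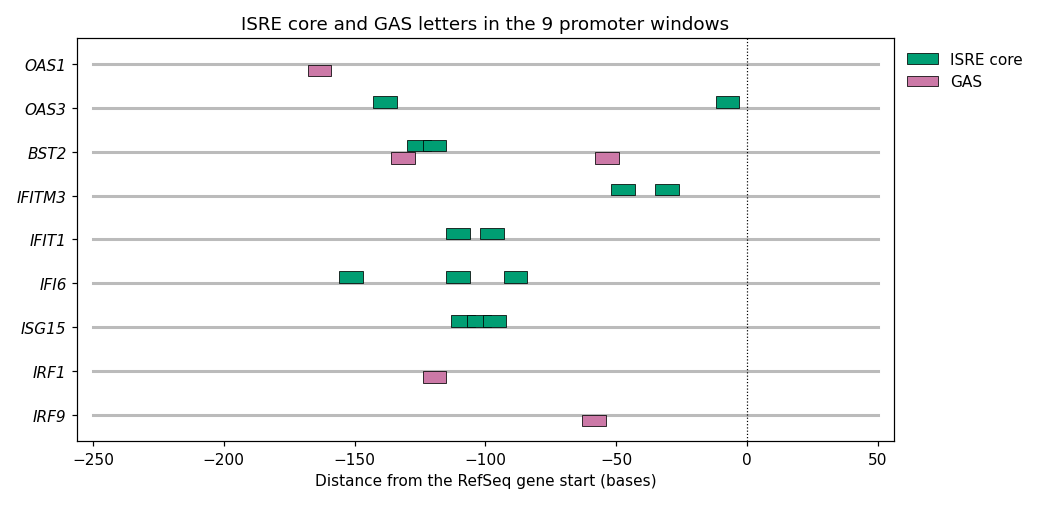
Positions of ISRE core (green, above each line) and GAS letters (pink, below) in the 9 promoter windows, in bases from the RefSeq gene start (dotted). ISRE cores occur in 6 windows and GAS letters in 4, and OAS1, IRF1 and IRF9 carry GAS letters without a match to the ISRE core letters searched.

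The libraries held 36.5 to 212.9 M counts (median 56.3 M). ERCC6 was at 6.97 ± 0.611 CPM in CSB_KO and 23.5 ± 0.473 CPM in WT at 0 h (SD, n = 3 each), whereas STK19 stood at 17.5 ± 0.587 CPM in STK19_KO1, 17.1 ± 0.862 in STK19_KO2 and 19 ± 1.07 in WT, so transcript level does not mark those knockouts. CPM denotes counts scaled to TMM-adjusted library size. Rises and falls are therefore relative to the other transcripts of a library, and RNA per cell was not measured. Of the genes listed for HEK293, INA (31.4 to 125 CPM) and LIN28B (11.2 to 143 CPM) were present in every library, while NEFM and PAX2 were low and the median of GAL was 0. PTPRC and CD3E, markers of white blood cells, had medians of 0, as had KRT5, KRT14, COL1A2 and DCN. CD14, also a myeloid marker, was at 20.1 to 23.0 CPM in CSB_KO in DMSO at 20 h and at 0.219 to 0.493 CPM in CSB_KO at 0 h, and COL1A1 was at 3.08 to 18.2 CPM. In all, 5 libraries stood apart from both other libraries of their group in a chi-square comparison of counts, 3 of them WT (replicate 1 at 0 h, 3 h and 4 h with DMSO) and the rest STK19_KO1 (replicate 3 at 3 h, replicate 1 at 4 h with ATRi). Nothing says whether replicates were separate cultures, and each p-value therefore reflects the spread among libraries, which may be technical.

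The ligands of the pathway were near the limit of detection throughout. IFNB1 had at most 1 count in any library, IFNA1 at most 2, IFNL3 at most 3, IFNG at most 4, IFNL2 at most 8 and IFNL1 at most 13. IFNE alone passed the filter on low counts, with at most 27 counts. In STK19_KO1 it averaged 0.154 CPM at 3 h and 0.192 CPM at 4 h in DMSO, against 0.0278 CPM at 0 h. Both differences passed the test (edgeR adjusted p = 0.0174 and 0.0101). No other line passed at these times, although the log2 fold change of IFNE was also positive there. It was 1.74 and 1.83 in WT, 1.66 and 1.69 in STK19_KO2, and 1.13 and 0.03 in CSB_KO, at 3 h and 4 h. The receptor chains were well expressed, at 30.5 to 102 CPM for IFNAR1 and 11.9 to 49.6 CPM for IFNAR2. Absence of ligand cannot be claimed from this, since 3 counts correspond to between 0.0145 and 0.0857 CPM in these libraries.

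Of the 9 members, 8 passed the filter and were tested. OAS1 did not: 53 of 72 libraries had no OAS1 count, and all libraries together held 38. The largest value was 10 counts, in 1 of the 3 WT libraries at 3 h, while the other two had none, and the 3 STK19_KO2 libraries at 0 h held 6 counts together. OAS1 was therefore not among the genes compared. With no filter on low counts, its difference between WT at 3 h and at 0 h had an edgeR adjusted p of 0.036, which rests on the 1 library with 10 counts. Its relative OAS2 (at most 14 counts) and the regulator IRF7 (at most 21) were also below the filter.

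In WT at 0 h the tested members ordered as follows in CPM per kb of exon. IFI6 was at 8.57 ± 0.505, BST2 at 5.13 ± 0.777, ISG15 at 3.54 ± 0.666 and OAS3 at 2.31 ± 0.269 (SD, n = 3). These 4 did not overlap one another or the rest. IRF9 (1.19 ± 0.117), IFIT1 (1.02 ± 0.134), IFITM3 (0.956 ± 0.112) and IRF1 (0.898 ± 0.0834) each overlapped the next in the order. All levels below are CPM, without division by length.

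The members differed in whether line or condition set their level. For OAS3, BST2 and IFITM3 the line accounted for 96.8%, 91.7% and 85.3% of the variance of the group means of log2 CPM. For IRF1 and IFIT1 it accounted for 4.51% and 1.58%, with 11.9% for IFI6, 15.2% for ISG15 and 25.8% for IRF9. OAS3, BST2 and IFITM3 also varied together over the 24 groups, with Pearson r = 0.942 for OAS3 and BST2, 0.946 for BST2 and IFITM3 and 0.910 for OAS3 and IFITM3. With the mean of each line removed these were 0.84, 0.777 and 0.697. IFIT1 then had r = 0.669 with OAS3, 0.739 with BST2 and 0.737 with IFITM3. ISG15 correlated with IRF1 (r = 0.819, or 0.893 after removing the mean of each line) and inversely with IFIT1 (r = -0.757, or -0.819). These are descriptions over 24 groups that share lines and conditions.

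**Figure D2:**
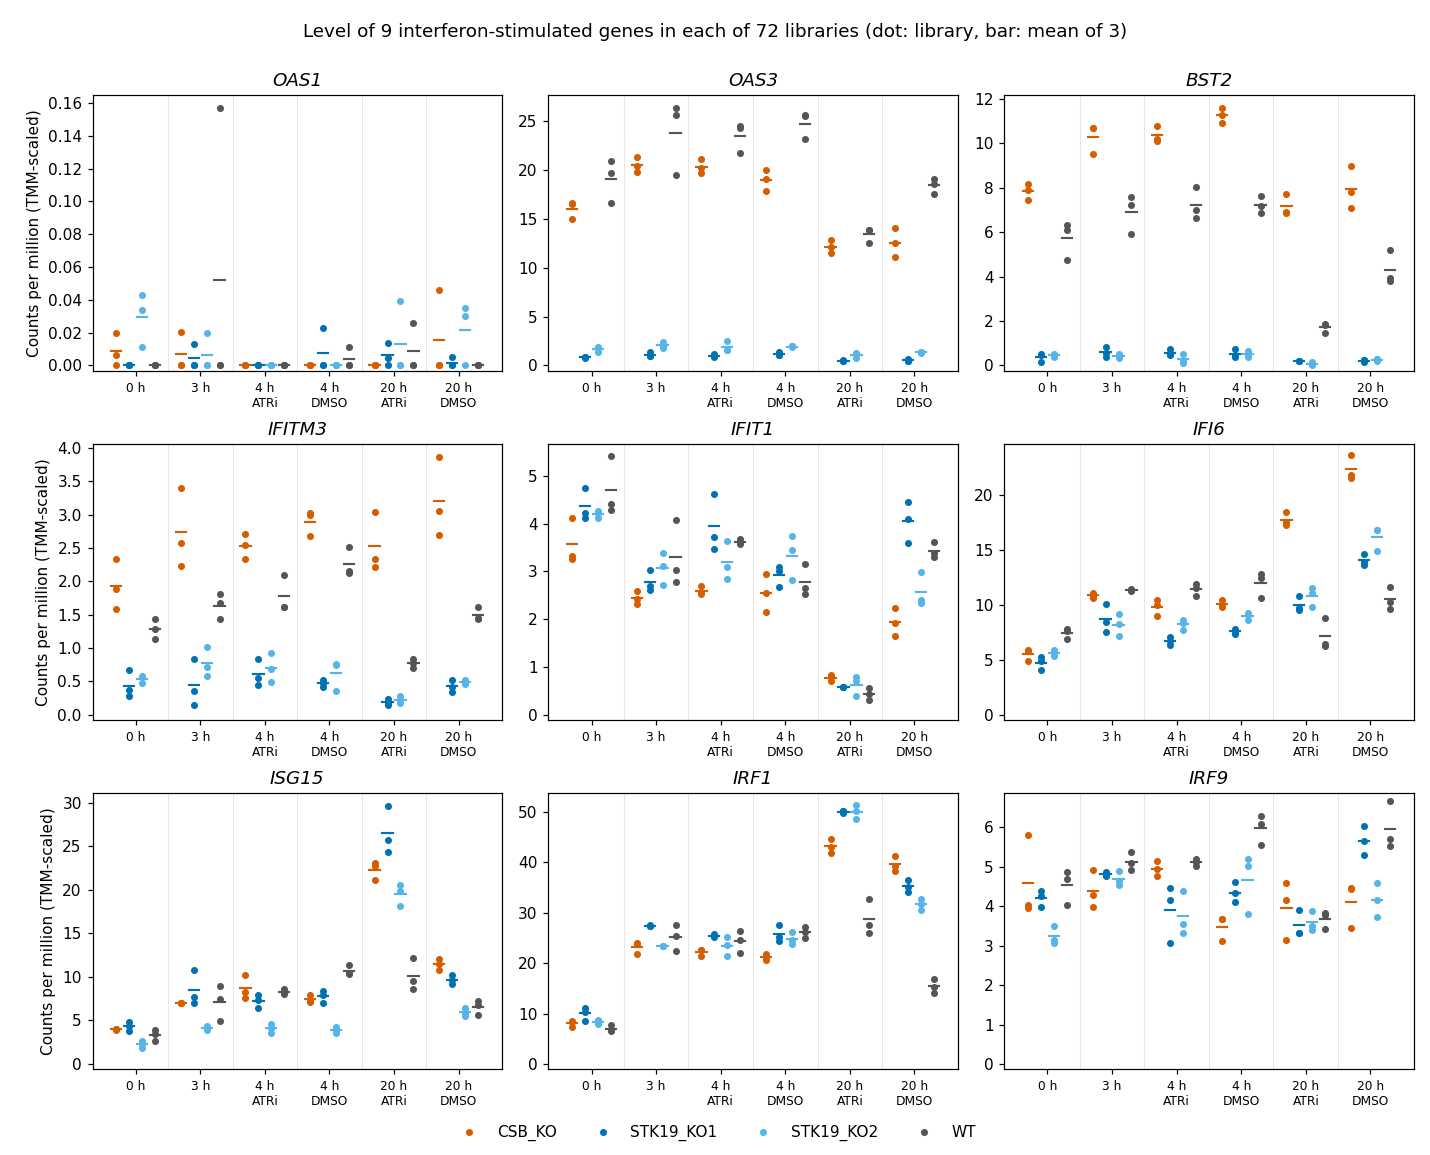
CPM of the 9 members in each of 72 libraries, by condition (x axis) and line (colour), with dots for libraries and bars for the mean of 3. OAS3, BST2 and IFITM3 separate by line, with the STK19 knockouts at the bottom in every condition, whereas IFIT1 drops in every line with ATRi at 20 h.

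Before irradiation OAS3 and BST2 were low in both STK19 knockouts. In bulk libraries fewer cells with a transcript and less RNA per cell cannot be told apart. OAS3 was at 0.865, 0.907 and 0.812 CPM in STK19_KO1, at 1.41, 1.75 and 1.92 CPM in STK19_KO2, and at 16.6, 20.9 and 19.7 CPM in WT. The log2 fold change was -4.48 ± 0.15 (SE) in STK19_KO1 and -3.48 ± 0.13 in STK19_KO2 (edgeR adjusted p = 2.73e-32 and 5.23e-30). BST2 was at 0.140, 0.475 and 0.532 CPM in STK19_KO1, at 0.390, 0.474 and 0.506 CPM in STK19_KO2, and at 4.74, 6.34 and 6.12 CPM in WT. Neither clone overlapped WT for either gene, and BST2 changed by -3.82 ± 0.24 and -3.63 ± 0.23 (edgeR adjusted p = 3.44e-20 and 2.04e-20). IFITM3, with 0.280, 0.367 and 0.665 CPM in STK19_KO1, 0.559, 0.588 and 0.473 CPM in STK19_KO2 and 1.14, 1.28 and 1.44 CPM in WT, followed with -1.5 ± 0.30 and -1.27 ± 0.28 (edgeR adjusted p = 2.36e-05 and 0.000161). IFITM3 is nearly identical in sequence to IFITM2 and IFITM1, so reads may be shared between them.

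These differences were present in all 6 conditions. In each condition every STK19_KO1 and STK19_KO2 library lay below every WT library for OAS3, BST2 and IFITM3. The ratio of means, knockout over WT, ran from 0.0293 to 0.0475 for OAS3 in STK19_KO1 and from 0.073 to 0.0889 in STK19_KO2. For BST2 it ran from 0.0492 to 0.127 in STK19_KO1 and from 0.0389 to 0.0796 in STK19_KO2, and for IFITM3 from 0.208 to 0.343 and from 0.275 to 0.474. CSB_KO went the other way for BST2 and IFITM3, with every library above WT in all 6 conditions. Ratios were 1.37 to 4.18 for BST2 and 1.28 to 3.29 for IFITM3. The highest ratio of each was at 20 h with ATRi, where WT was at its lowest (1.71 CPM for BST2 and 0.77 CPM for IFITM3). At 0 h the IFITM3 difference in CSB_KO (0.57) did not pass the test (edgeR adjusted p = 0.0806). OAS3 in CSB_KO was at 0.682 to 0.906 of WT and below it without overlap in 3 of 6 conditions. The conditions of a line share their clone, so they are not replicates of the knockout.

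The other members differed less between lines at 0 h. IFI6 was at 5.78, 5.87 and 4.85 CPM in CSB_KO, 5.28, 4.04 and 4.87 CPM in STK19_KO1, 5.34, 5.64 and 5.91 CPM in STK19_KO2 and 6.92, 7.75 and 7.57 CPM in WT. It was lower than WT without overlap in each edited line, by -0.42 ± 0.10, -0.65 ± 0.10 and -0.40 ± 0.10 on the log2 scale (edgeR adjusted p = 0.00045, 2.91e-07 and 0.000631). ISG15 differed from WT in opposite directions in the STK19 clones, by 0.38 ± 0.15 in STK19_KO1 and -0.58 ± 0.16 in STK19_KO2 (edgeR adjusted p = 0.0391 and 0.00195). The STK19_KO1 call was lost in 11 of 15 settings, among them RLE scaling and each replicate number left out, and its libraries overlapped those of WT. The STK19_KO2 call was lost in 1 of 15, when replicate 3 of both groups was left out (-0.30, edgeR adjusted p = 0.211). ISG15 was at 4.37, 3.84 and 4.82 CPM in STK19_KO1, 2.3, 2.60 and 1.89 CPM in STK19_KO2 and 2.67, 3.41 and 3.91 CPM in WT. IRF1 was higher in STK19_KO1 (11.2, 8.59 and 10.3 CPM) than in WT (6.49, 6.79 and 7.73 CPM), by 0.51 ± 0.08 (edgeR adjusted p = 6.94e-07). IRF9 was lower in STK19_KO2 (3.15, 3.49 and 3.06 CPM) than in WT (4.03, 4.70 and 4.87 CPM), by -0.49 ± 0.13 (edgeR adjusted p = 0.00122). IRF9 shares exon sequence with its overlapping neighbour, so its count is uncertain.

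In CSB_KO 1 tested member was higher and 2 were lower than WT at an edgeR adjusted p under 0.05, where 19.1% of all 15470 tested genes were higher and 15.7% lower. In STK19_KO1 2 were higher and 4 lower, against 29.5% and 19.2% of all genes. In STK19_KO2 1 was higher and 6 lower, against 26.6% and 20.7%. At least 2-fold differences that passed the test numbered 0 in CSB_KO, 3 in STK19_KO1 and 3 in STK19_KO2, against 3.93%, 7.14% and 6.55% of all genes, and the 3 were OAS3, BST2 and IFITM3 in both clones. The median log2 fold change of the 8 tested members was 0.10 in CSB_KO, -0.38 in STK19_KO1 and -0.54 in STK19_KO2, and that of all genes was -0.001, 0.049 and 0.029. The 3 comparisons share the WT libraries. The calls lost when 1 library was left out were BST2 in CSB_KO (0.45; 0.33 to 0.50 without replicate 1 or 3 of WT or any 1 of the 3 CSB_KO libraries), IFIT1 in CSB_KO (-0.40; -0.36 to -0.29 without replicate 1 of WT or replicate 2 or 3 of CSB_KO), ISG15 in STK19_KO1 (0.38; 0.25 to 0.38 without replicate 1 or 2 of WT or replicate 1 or 3 of STK19_KO1) and IRF1 in STK19_KO2 (0.23; 0.18 to 0.21 without replicate 1 or 2 of WT or replicate 2 of STK19_KO2).

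**Figure D3:**
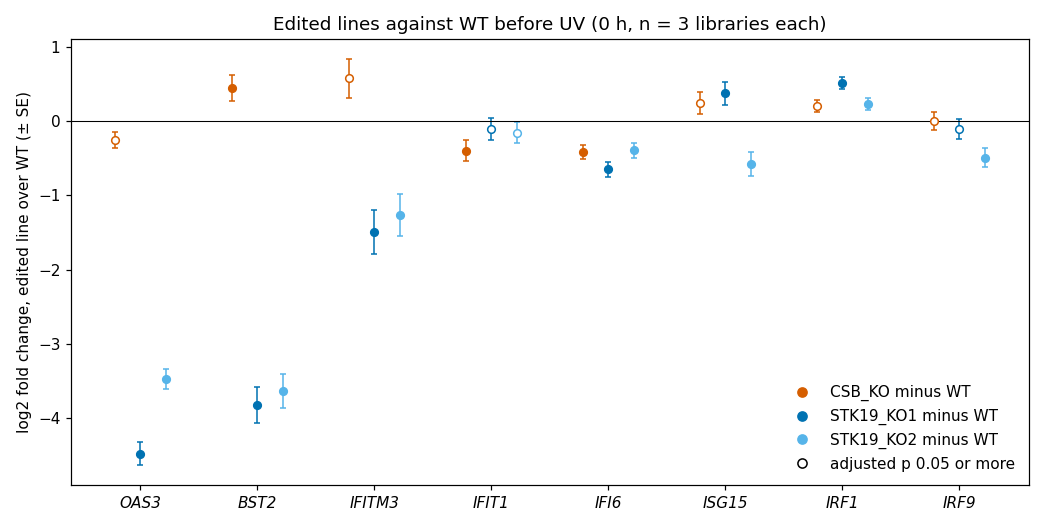
Log2 fold change (± SE) of each edited line over WT at 0 h for the 8 tested members, from 3 libraries per group. Filled points passed the edgeR test, and OAS3 and BST2 lie between -4.48 and -3.48 in the STK19 knockouts.

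STK19_KO2 and STK19_KO1 were not alike in every member. OAS3 was higher in STK19_KO2 by 1.00 ± 0.18 (edgeR adjusted p = 8.42e-06) and ISG15 was lower by -0.96 ± 0.16 (edgeR adjusted p = 1.45e-06). IRF1 (-0.27 ± 0.08) and IRF9 (-0.38 ± 0.13) were also lower, so that 1 member was higher and 3 lower, against 14.4% and 18.8% of all genes. IRF1 lost its call without replicate 1 of STK19_KO1 (-0.20), and IRF9 without replicate 1 or 2 of STK19_KO1 or replicate 1 or 3 of STK19_KO2 (-0.37 to -0.34). The receptor chains differed between the clones as well, since all 6 tested interferon receptor genes were lower in STK19_KO2 than in STK19_KO1, with a median log2 fold change of -0.70.

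The wider pathway list held 87 genes in the table besides the members, of which 73 were tested. At 0 h 13 of the 73 were higher and 12 lower than WT in CSB_KO, where 19.1% of all genes were higher and 15.7% lower. In STK19_KO1 12 were higher and 26 lower (29.5% and 19.2% of all genes). STK19_KO2 also had 12 higher and 26 lower (26.6% and 20.7% of all genes). The group of other interferon-stimulated genes held most of the lower ones, with 21 of 42 in STK19_KO1 and 17 of 42 in STK19_KO2, while 10 of 42 were lower in CSB_KO. IFI16, a sensor of DNA, was at 0.0695 CPM in CSB_KO, 0.137 in STK19_KO1, 0.0474 in STK19_KO2 and 2.54 in WT, and had the largest or next largest drop of the list in every edited line. IFI44L had 9 counts over the 3 CSB_KO libraries, none in STK19_KO1 and 126 in WT, which places STK19_KO1 at least 38-fold lower when 3 counts over the group are taken as the floor. IFIH1 (MDA5), a sensor of double-stranded RNA, changed by -3.16 ± 0.16 in STK19_KO1, the GTPase MX1 by -2.40 ± 0.41 and CMPK2 by -1.92 ± 0.50 in STK19_KO2, and IFI35 by -1.40 ± 0.15 in CSB_KO. IKBKE, a kinase that acts on interferon regulatory factors, was the one gene among the 3 largest gains in all 3 lines, at 1.32 ± 0.21 in CSB_KO, 1.39 ± 0.21 in STK19_KO1 and 1.65 ± 0.21 in STK19_KO2.

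Other large gains at 0 h were EPSTI1 (1.28 ± 0.35) and the RNA helicase DHX58 (0.81 ± 0.27) in CSB_KO, SOCS1, an inhibitor of JAK kinases (0.98 ± 0.30), and UBA7, the activating enzyme for ISG15 (0.90 ± 0.31), in STK19_KO1, and the phosphatase PTPN2 (0.72 ± 0.07) in STK19_KO2. OASL, a relative of OAS3, had 28 counts in STK19_KO2 and 3 in WT, a ratio of 7.72 with a 95% counting interval of 2.38 to 39.7. Relatives of the members followed them in part. IFITM2 and IFITM1 fell with IFITM3 in STK19_KO1 (-1.60 ± 0.15 and -1.55 ± 0.18) and STK19_KO2 (-1.42 ± 0.15 and -0.85 ± 0.17), and in CSB_KO IFITM2 was higher (0.64 ± 0.13) while IFITM1 was lower (-0.69 ± 0.17). IFIT5 was lower in all 3 edited lines (-0.31, -0.22 and -0.40 in CSB_KO, STK19_KO1 and STK19_KO2). STAT2, a partner of IRF9, was at 26.7, 24.8, 23.8 and 25.2 CPM in CSB_KO, STK19_KO1, STK19_KO2 and WT, and passed the test in none of the edited lines (edgeR adjusted p between 0.224 and 0.743). IFNAR1 and IFNAR2 were lower in STK19_KO2, by -0.86 ± 0.07 and -1.13 ± 0.07.

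After UV, IRF1, ISG15 and IFI6 rose and IFIT1 fell in all 4 lines at 3 h. In WT, IRF1 ranged from 6.49 to 7.73 CPM at 0 h, 22.5 to 27.5 at 3 h, 25.0 to 27.2 at 4 h in DMSO and 14 to 16.9 at 20 h in DMSO. The 3 h change was 1.52 ± 0.08 in CSB_KO, 1.46 ± 0.08 in STK19_KO1, 1.49 ± 0.08 in STK19_KO2 and 1.84 ± 0.08 in WT, with edgeR adjusted p between 2.88e-28 and 4.95e-24. ISG15 in WT ranged from 2.67 to 3.91 CPM at 0 h, 4.97 to 8.98 at 3 h, 10.3 to 11.4 at 4 h and 5.64 to 7.28 at 20 h. Of these times 4 h had the highest mean for both genes, with 3 h and 4 h overlapping for IRF1, and no later library overlapped those at 0 h. IFI6 in WT ranged from 6.92 to 7.75 CPM at 0 h, 11.2 to 11.4 at 3 h, 10.6 to 12.8 at 4 h and 9.62 to 11.6 at 20 h. IFIT1 in WT ranged from 4.28 to 5.41 CPM at 0 h, 2.78 to 4.08 at 3 h, 2.52 to 3.16 at 4 h and 3.30 to 3.61 at 20 h. Across lines IFIT1 changed by -0.66 to -0.46 at 3 h and by -0.75 to -0.33 at 4 h.

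At 3 h 5 members rose and 1 fell in CSB_KO (32% of all genes rose and 29.3% fell), at an edgeR adjusted p under 0.05. STK19_KO1 had 3 members up and 1 down, where 29.9% of all genes were up and 30.6% down. Both STK19_KO2 and WT had 4 up and 1 down, beside 29.1% and 28.5% of all genes in STK19_KO2 and 33.6% and 28.8% in WT. At 4 h in DMSO 6 rose and 2 fell in CSB_KO (33.6% and 30.2%), and 6 rose and 1 fell in WT (35% and 31.3%). STK19_KO1 had 3 members up and 1 down, beside 27.9% and 30% of all genes, and STK19_KO2 had 4 up and 1 down, beside 31.6% and 29.8%. All times of a line are set against the same 0 h libraries. The median of the 8 members at 3 h was 0.45, 0.43, 0.52 and 0.33 in CSB_KO, STK19_KO1, STK19_KO2 and WT, where that of all genes was 0.06, 0.03, 0.05 and 0.06. Of the 8 tested members, 7 span less than 15 kb in GENCODE 29, and the 4567 tested genes under that span had medians of 0.36, 0.38, 0.33 and 0.37 at 3 h in the same order of lines. IRF1 counts as short at 9.19 kb in GENCODE 29, although its interval in the count table is wider (132440440 to 132508719). The part of gene span in the members' changes was not tested.

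Weaker early changes concerned the other members. OAS3 rose at 3 h in CSB_KO (0.36 ± 0.11) and WT (0.32 ± 0.11). In WT the call was lost without replicate 1 at 0 h or replicate 2 or 3 at 3 h (0.23 to 0.27). At 4 h in DMSO OAS3 rose by 0.25 ± 0.11 in CSB_KO and 0.38 ± 0.11 in WT, and the CSB_KO call was lost without any 1 of its 3 libraries at 0 h or without replicate 2 or 3 at 4 h (0.20 to 0.27). BST2 passed the test in CSB_KO, rising by 0.40 ± 0.17 at 3 h and 0.53 ± 0.17 at 4 h, and the 3 h call was lost without any 1 of the 3 libraries at 0 h or without replicate 1 or 3 at 3 h (0.36 to 0.42). IFITM3 rose at 4 h by 0.59 ± 0.25 in CSB_KO and 0.80 ± 0.26 in WT, and the CSB_KO call was lost without replicate 1 or 2 of either time (0.47 to 0.58). IRF9 rose in STK19_KO2 by 0.54 ± 0.13 at 3 h and at 4 h and in WT by 0.40 ± 0.13 at 4 h, where the call was lost without the 5 libraries that stood apart (0.26) or without replicate 1 of both times (0.28). It fell by 0.38 ± 0.13 in CSB_KO at 4 h, a call lost without replicate 3 at 0 h (-0.19) or replicate 2 at 4 h (-0.31). For IFIT1 in STK19_KO2 the 3 h call was lost without replicate 3 at 3 h (-0.37), and the 4 h call without any 1 of the 3 libraries at 0 h or replicate 1 or 2 at 4 h (-0.36 to -0.23).

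**Figure D4:**
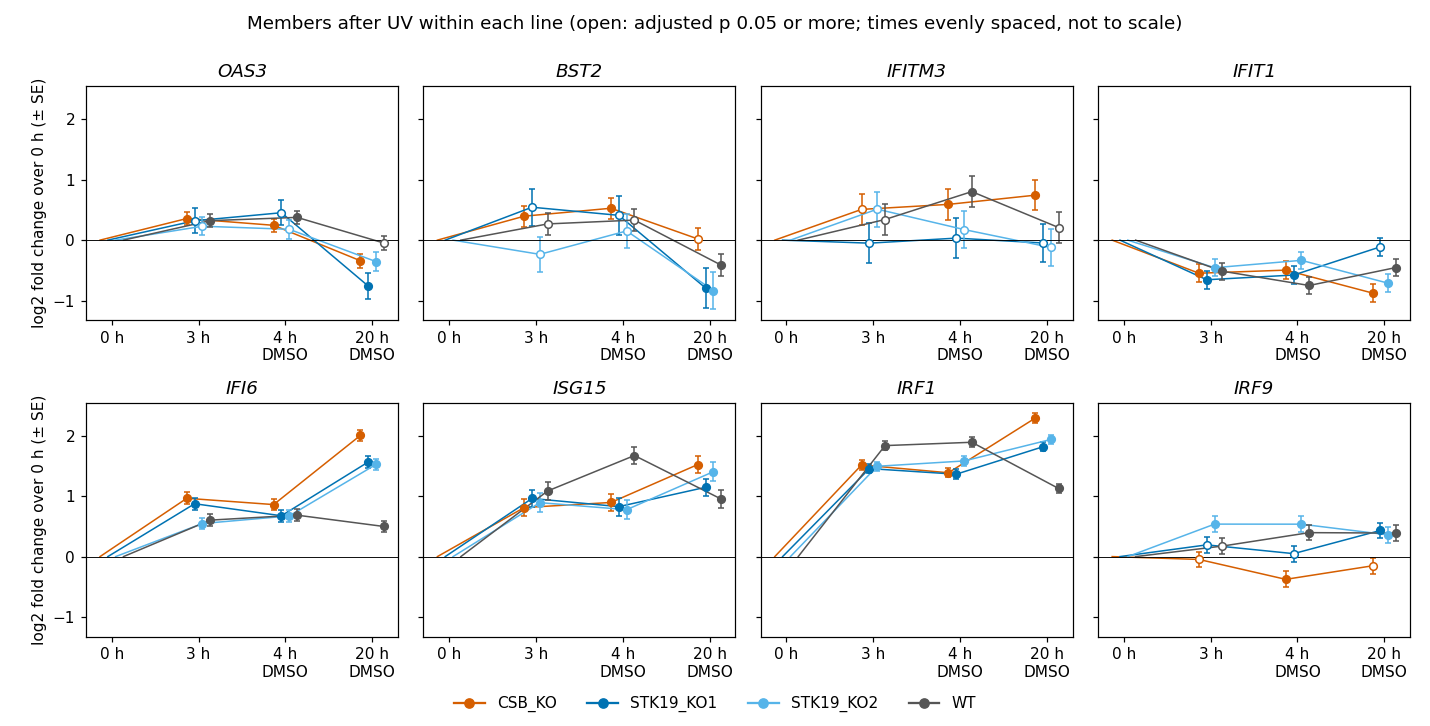
Log2 fold change (± SE) over 0 h at 3 h, 4 h and 20 h in DMSO for the 8 tested members in each line (3 libraries per group, times evenly spaced). IRF1, ISG15 and IFI6 lie above 0 at every time, and at 20 h IRF1 and IFI6 stand higher in the edited lines than in WT.

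By 20 h in DMSO the lines had parted. IRF1 was at 41.3, 39.2 and 38.3 CPM in CSB_KO, 36.4, 34.1 and 35.1 CPM in STK19_KO1, 30.5, 31.8 and 32.8 CPM in STK19_KO2 and 16.9, 14 and 15.3 CPM in WT, with no overlap between any edited line and WT. The change over 0 h was 2.29 ± 0.08 in CSB_KO, 1.82 ± 0.08 in STK19_KO1, 1.94 ± 0.08 in STK19_KO2 and 1.13 ± 0.08 in WT. Tested as an interaction, the rise was larger than in WT by 1.16 ± 0.11 in CSB_KO (edgeR adjusted p = 4.38e-14) and by 0.75 ± 0.10 for the mean of the STK19 clones (edgeR adjusted p = 1.54e-09). IFI6 was also highest in CSB_KO and lowest in WT, at 23.6, 21.5 and 21.8 CPM in CSB_KO, 13.6, 13.9 and 14.6 CPM in STK19_KO1, 14.9, 16.8 and 16.8 CPM in STK19_KO2 and 9.62, 11.6 and 10.2 CPM in WT. Its rise was 2.00 ± 0.10, 1.56 ± 0.10, 1.52 ± 0.10 and 0.50 ± 0.10 in those lines, and exceeded that of WT by 1.51 ± 0.13 in CSB_KO and 1.05 ± 0.12 in the STK19 clones (edgeR adjusted p = 4.49e-15 and 2.87e-11). IFI6 was thus below WT in every edited line at 0 h and above WT in every edited line at 20 h.

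ISG15 at 20 h in DMSO was at 10.8, 11.5 and 12.1 CPM in CSB_KO, 9.62, 9.19 and 10.2 CPM in STK19_KO1, 5.46, 6.44 and 5.86 CPM in STK19_KO2 and 6.81, 7.28 and 5.64 CPM in WT. It rose in all 4 lines, by 1.52 ± 0.14, 1.15 ± 0.14, 1.4 ± 0.15 and 0.95 ± 0.15. The rise exceeded that of WT by 0.57 ± 0.20 in CSB_KO (edgeR adjusted p = 0.0117), a call lost without replicate 3 of WT at 0 h (0.42) or at 20 h (0.46). IFIT1 fell in CSB_KO (-0.88 ± 0.15), STK19_KO2 (-0.71 ± 0.15) and WT (-0.45 ± 0.14; -0.34 and not called without replicate 1 of WT at 0 h). In STK19_KO1 IFIT1 was at 4.09, 4.45 and 3.6 CPM at 20 h and at 4.23, 4.75 and 4.12 CPM at 0 h, which overlap. IRF9 rose in STK19_KO1 (0.43 ± 0.13), in STK19_KO2 (0.36 ± 0.13; 0.29 and not called without replicate 1 at 20 h) and in WT (0.39 ± 0.13; 0.31 and not called without replicate 1 at either time). In CSB_KO its change of -0.15 ± 0.13 did not pass the test, and differed from that of WT by -0.54 ± 0.18 (edgeR adjusted p = 0.00714; -0.36 and not called without replicate 3 of CSB_KO at 0 h).

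OAS3 and BST2 were lower at 20 h than at 0 h in several lines, with small counts in the STK19 clones. OAS3 changed by -0.34 ± 0.11 in CSB_KO (-0.26 and not called without replicate 3 at 20 h), by -0.76 ± 0.22 in STK19_KO1 (-0.47 and not called without replicate 1 at 20 h) and by -0.36 ± 0.16 in STK19_KO2, the last not called without replicate 2 or 3 at 0 h or any 1 library at 20 h (-0.37 to -0.24). The mean change in the clones differed from that in WT by -0.51 ± 0.17 (edgeR adjusted p = 0.0101; -0.36 and not called without replicate 1 of STK19_KO1 at 20 h). BST2 changed by -0.79 ± 0.33 in STK19_KO1, -0.83 ± 0.31 in STK19_KO2 and -0.41 ± 0.18 in WT. Each of these 3 calls depended on single libraries: without replicate 2 or 3 at 0 h or 2 at 20 h in STK19_KO1 (-0.69 to -0.42), without replicate 3 at 0 h or 2 at 20 h in STK19_KO2 (-0.74 and -0.65), and without replicate 2 or 3 at 0 h or 1 or 3 at 20 h in WT (-0.36 to -0.34). IFITM3 rose in CSB_KO by 0.74 ± 0.25 (0.58 and not called without replicate 2 at 20 h).

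In the 20 h comparison 4 members rose and 2 fell in CSB_KO, against 38.3% and 40.5% of all genes. In STK19_KO1 4 rose and 2 fell (32.1% and 37% of all genes), in STK19_KO2 4 rose and 3 fell (33.8% and 37.8%), and in WT 4 rose and 2 fell (30% and 25.4%). For the interaction with WT, 3 members were higher and 1 lower in CSB_KO, against 30.9% and 36.3%, and 2 were higher and 1 lower in the STK19 mean, against 22.8% and 32.7%. Short genes as a group moved in the same direction as IRF1, IFI6 and ISG15. The median change of the 4567 genes spanning under 15 kb was 0.69 in CSB_KO, 0.32 in STK19_KO1, 0.37 in STK19_KO2 and 0.21 in WT at 20 h, and their interaction medians were 0.47 for CSB_KO and 0.13 for the STK19 mean. CD14 moved with these members too, at 3.76 to 23.0 CPM in the edited lines and 1.56 to 2.17 CPM in WT at 20 h in DMSO, while PTPRC and CD3E stayed at or below 0.472 CPM. The part of either in the members' changes was not tested.

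Of the 73 other pathway genes tested, 27 rose and 23 fell in CSB_KO at 20 h, against 38.3% and 40.5% of all genes. In STK19_KO1 30 rose and 17 fell (32.1% and 37% of all genes), and in STK19_KO2 28 rose and 19 fell (33.8% and 37.8%). In WT 34 rose and 11 fell (30% and 25.4%). SOCS1 was among the 3 largest gains in every line, at 3.75 ± 0.21 in CSB_KO, 2.87 ± 0.22 in STK19_KO1, 3.88 ± 0.22 in STK19_KO2 and 1.64 ± 0.27 in WT. DHX58 gained 4.17 ± 0.21 in CSB_KO and 2.68 ± 0.24 in WT, UBA7 gained 3.11 ± 0.25 in STK19_KO1, 3.45 ± 0.26 in STK19_KO2 and 1.66 ± 0.29 in WT, and IFI27 gained 3.6 ± 0.19 in CSB_KO, 2.85 ± 0.20 in STK19_KO1 and 2.55 ± 0.18 in STK19_KO2. IRF2, which competes with IRF1 for its sites, fell in all 4 lines, by 2.75 ± 0.17 in CSB_KO, 1.17 ± 0.15 in STK19_KO1, 1.49 ± 0.15 in STK19_KO2 and 0.33 ± 0.14 in WT. IRF3 rose in all 4, by 0.76, 0.76, 0.62 and 0.54 in the same order. STAT2 rose in all 4 lines (0.21, 0.77, 0.80 and 0.56).

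Further drops at 20 h were those of the RNA sensor RIGI (-2.49 ± 0.70) and of SAMD9 (-1.97 ± 0.17) in CSB_KO, of IKBKE (-0.97 ± 0.20) and PIAS1 (-0.87 ± 0.07) in STK19_KO1, of the adaptor MAVS (-1.13 ± 0.06) in STK19_KO2, and of EPSTI1 (-1.26 ± 0.40), JAK2 (-0.68 ± 0.16) and LGALS3BP (-0.59 ± 0.09) in WT. IFI44 had 3 counts at 20 h and 25 at 0 h in STK19_KO2, a ratio of 0.114 with a 95% counting interval of 0.0221 to 0.374. Relatives of IFIT1 differed in direction at this time. IFIT2 rose in CSB_KO (1.5 ± 0.36), STK19_KO1 (1.29 ± 0.35) and STK19_KO2 (1.36 ± 0.33), and IFIT3 in STK19_KO1 (1.23 ± 0.29), STK19_KO2 (1.67 ± 0.28) and WT (0.65 ± 0.29). IFIT5 fell in CSB_KO (-0.64 ± 0.08), STK19_KO1 (-0.19 ± 0.08) and WT (-0.46 ± 0.08). IFITM1 rose in CSB_KO, STK19_KO1 and WT (0.54, 0.84 and 0.46), and IFITM2 rose in CSB_KO (0.51) and fell in STK19_KO2 (-0.60).

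At 4 h 1 of the 32 member values differed between ATRi and DMSO, IRF9 in CSB_KO, at 4.94, 4.76 and 5.15 CPM with ATRi and 3.67, 3.12 and 3.67 CPM with DMSO (0.50 ± 0.13, edgeR adjusted p = 0.0162). It was lost without replicate 2 of the DMSO libraries (0.43) or replicate 3 of the ATRi libraries (0.47), and IRF9 reads may come from the overlapping gene. Few genes of any kind passed the test at this time, 2.97% in CSB_KO, 0.905% in STK19_KO1, 0.22% in STK19_KO2 and 2.66% in WT, counting both directions.

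At 20 h 24 of the 32 member values differed between ATRi and DMSO. Of all genes 14.1% rose and 17.5% fell in CSB_KO, and 31.5% and 30.1% in STK19_KO1. The shares were 30.5% and 27.7% in STK19_KO2, and 30.2% and 33.7% in WT. The largest change among the members was a loss of IFIT1. IFIT1 was at 0.800, 0.839 and 0.697 CPM with ATRi and 1.65, 1.92 and 2.24 CPM with DMSO in CSB_KO. In STK19_KO1 it was at 0.585, 0.571 and 0.591 CPM with ATRi and 4.09, 4.45 and 3.6 CPM with DMSO, and in STK19_KO2 at 0.701, 0.798 and 0.393 CPM with ATRi and 2.41, 2.33 and 2.98 CPM with DMSO. WT libraries held 0.567, 0.313 and 0.432 CPM with ATRi and 3.39, 3.61 and 3.30 CPM with DMSO. No ATRi library overlapped a DMSO library in any line. The log2 fold change was -1.30 ± 0.18 in CSB_KO, -2.79 ± 0.16 in STK19_KO1, -1.98 ± 0.17 in STK19_KO2 and -3.01 ± 0.19 in WT (edgeR adjusted p between 6.46e-22 and 3.01e-08). The drop was smaller than in WT by 1.70 ± 0.26 in CSB_KO (edgeR adjusted p = 1.92e-07) and by 0.62 ± 0.23 in the STK19 mean (edgeR adjusted p = 0.0248), the second not called without replicate 2 or 3 of WT in ATRi or replicate 2 of STK19_KO2 in ATRi (0.42 to 0.63).

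ISG15 and IRF1 moved the opposite way. ISG15 with ATRi was at 21.1, 22.8 and 23.1 CPM in CSB_KO, 24.4, 29.7 and 25.7 CPM in STK19_KO1, 19.9, 18.1 and 20.6 CPM in STK19_KO2 and 12.2, 8.58 and 9.48 CPM in WT. Against the DMSO values given above it rose in all 4 lines without overlap, by 0.96 ± 0.13, 1.46 ± 0.13, 1.71 ± 0.14 and 0.62 ± 0.14. The gain in the STK19 mean exceeded that in WT by 0.96 ± 0.17 (edgeR adjusted p = 3.6e-06). IRF1 with ATRi was at 41.8, 44.6 and 43.0 CPM in CSB_KO, where the change of 0.13 ± 0.07 did not pass the test. It was at 50.2, 50.2 and 49.7 CPM in STK19_KO1, 51.4, 50.2 and 48.6 CPM in STK19_KO2 and 32.8, 27.5 and 25.9 CPM in WT, and rose by 0.51 ± 0.07, 0.66 ± 0.07 and 0.90 ± 0.07 in these lines. Relative to WT the gain of IRF1 was smaller by -0.77 ± 0.10 in CSB_KO (edgeR adjusted p = 5.99e-09) and by -0.31 ± 0.09 in the STK19 mean (edgeR adjusted p = 0.00341; -0.21 and not called without replicate 1 of WT in ATRi).

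IFI6 fell with ATRi in all 4 lines although it had risen after UV. It was at 18.4, 17.2 and 17.5 CPM in CSB_KO, 9.68, 9.49 and 10.8 CPM in STK19_KO1, 11.1, 11.5 and 9.76 CPM in STK19_KO2 and 8.76, 6.42 and 6.29 CPM in WT, all below the DMSO libraries of the line. The change was -0.33 ± 0.09, -0.49 ± 0.09, -0.58 ± 0.09 and -0.56 ± 0.10 (edgeR adjusted p between 1.93e-07 and 0.00298), with no interaction that passed the test. IFITM3 fell in STK19_KO1 (-1.32 ± 0.33), STK19_KO2 (-1.16 ± 0.34) and WT (-0.95 ± 0.28), and IRF9 in STK19_KO1 (-0.68 ± 0.13) and WT (-0.69 ± 0.13). BST2 in CSB_KO was at 6.86, 6.93 and 7.70 CPM with ATRi and 8.98, 7.09 and 7.83 CPM with DMSO, which overlap. In WT it was at 1.47, 1.86 and 1.81 CPM with ATRi and 3.80, 5.21 and 3.95 CPM with DMSO (-1.32 ± 0.20), and the change in CSB_KO minus that in WT was 1.17 ± 0.27 (edgeR adjusted p = 0.000202). In STK19_KO2 BST2 was at 0, 0.0876 and 0.157 CPM with ATRi and 0.281, 0.218 and 0.302 CPM with DMSO (-1.55 ± 0.45), with no count in 1 of the ATRi libraries.

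OAS3 in CSB_KO was at 12.1, 12.9 and 11.5 CPM with ATRi and 12.5, 14.1 and 11.1 CPM with DMSO, which overlap. In WT it fell, to 12.5, 13.9 and 13.9 CPM with ATRi against 17.6, 19.1 and 18.6 CPM with DMSO (-0.46 ± 0.11, edgeR adjusted p = 0.000336). The change in CSB_KO differed from that in WT by 0.41 ± 0.16 (edgeR adjusted p = 0.0295). That difference was not called without replicate 2 of WT in DMSO, replicate 1 of WT in ATRi, replicate 3 of CSB_KO in DMSO or replicate 2 of CSB_KO in ATRi (0.33 to 0.38). The fall of OAS3 in STK19_KO2 (-0.45 ± 0.18) was not called without replicate 1 or 3 in DMSO (-0.44 and -0.43) or replicate 2 in ATRi (-0.16). IRF9 changed less in CSB_KO than in WT, by a difference of 0.66 ± 0.19 (edgeR adjusted p = 0.00215).

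With ATRi at 20 h 1 member rose and 2 fell in CSB_KO, against 14.1% and 17.5% of all genes. In STK19_KO1 2 rose and 4 fell (31.5% and 30.1% of all genes), in STK19_KO2 2 rose and 5 fell (30.5% and 27.7%), and in WT 2 rose and 6 fell (30.2% and 33.7%). The interaction with WT was positive for 4 members and negative for 1 in CSB_KO, against 24.7% and 26.9% of all genes, and positive for 2 and negative for 1 in the STK19 mean, against 20.7% and 20.2%. The member median was -0.10, -0.30, -0.52 and -0.63 in CSB_KO, STK19_KO1, STK19_KO2 and WT, beside 0.013, 0.018, 0.025 and -0.034 over all genes. Short genes did not shift at this comparison, with medians between -0.03 and 0.02 in the 4 lines. CD14 was higher with ATRi than with DMSO in every line, at 29 to 33.4 against 20.1 to 23.0 CPM in CSB_KO and 2.27 to 3.45 against 1.56 to 2.17 CPM in WT, and its part in the result was not tested. The ATRi and the time comparisons at 20 h share their DMSO libraries.

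**Figure D5:**
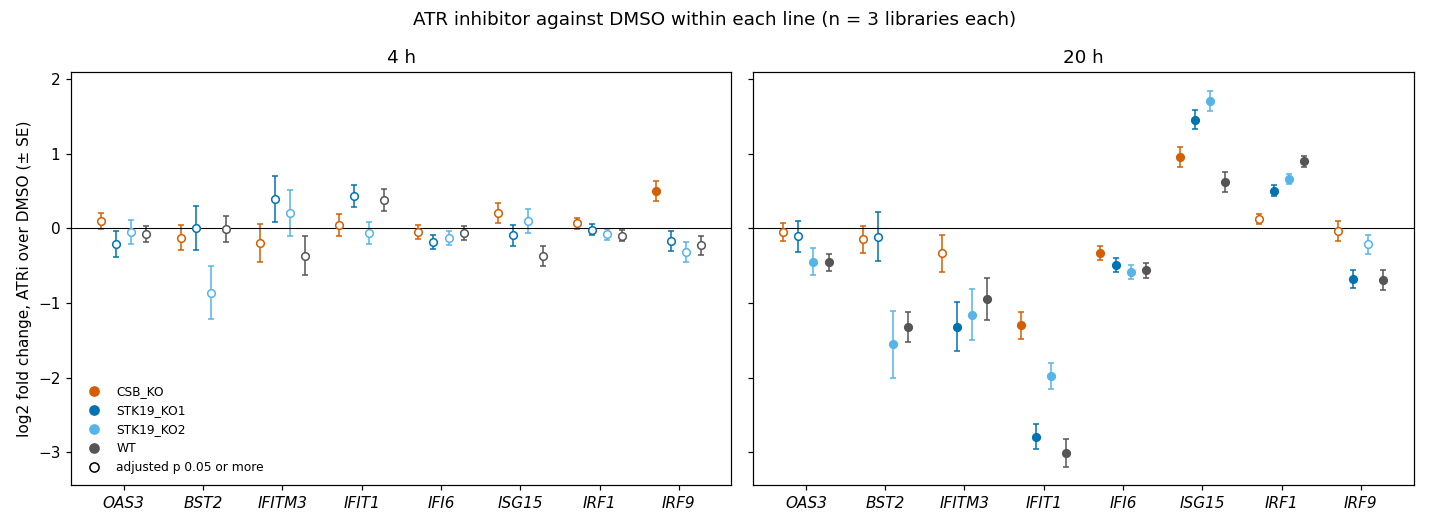
Log2 fold change (± SE) of ATRi over DMSO at 4 h (left) and 20 h (right) for the 8 tested members in each line, from 3 libraries per group. At 20 h IFIT1 lies between -3.01 and -1.30 and ISG15 between 0.62 and 1.71, while at 4 h IRF9 in CSB_KO is the one filled point.

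Most pathway genes that changed with ATRi at 20 h fell. Of 73 tested, 5 rose and 25 fell in CSB_KO, against 14.1% and 17.5% of all genes. In STK19_KO1 14 rose and 39 fell (31.5% and 30.1% of all genes), and in STK19_KO2 11 rose and 33 fell (30.5% and 27.7%). In WT 15 rose and 34 fell (30.2% and 33.7%). IFIT2 and IFIT3 fell with IFIT1 in every line, IFIT2 by 1.15 ± 0.37 in CSB_KO, 2.01 ± 0.34 in STK19_KO1, 1.67 ± 0.34 in STK19_KO2 and 2.58 ± 0.40 in WT, and IFIT3 by 1.21 ± 0.31, 1.84 ± 0.29, 1.36 ± 0.28 and 2.04 ± 0.32. IFITM1 also fell in every line, by 0.61 ± 0.17, 2.59 ± 0.20, 1.71 ± 0.19 and 1.33 ± 0.17, and IFITM2 in all but CSB_KO. IRF2 fell in all 4 (-1.04, -1.78, -1.09 and -1.67), and at least 4 of the 6 receptor genes fell in each line. IFIT5 fell in the edited lines (-0.52, -0.50 and -0.44) and was at 28.7 CPM with ATRi and 27.7 CPM with DMSO in WT. STAT2 fell in STK19_KO1 (-0.62 ± 0.05) and WT (-0.38 ± 0.05).

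The largest single changes with ATRi were in sensors and effectors. SAMD9 fell by 2.17 ± 0.19 in STK19_KO1, 1.86 ± 0.18 in STK19_KO2 and 2.52 ± 0.17 in WT, the RNA sensor TLR3 by 1.53 ± 0.45 in CSB_KO and 2.15 ± 0.41 in WT, IFI44L by 2.46 ± 0.51 in STK19_KO2 and TRIM21, a cytosolic antibody receptor, by 1.19 ± 0.13 in CSB_KO. CGAS, the sensor of cytosolic DNA, rose, to 1.67 CPM with ATRi against 0.212 CPM with DMSO in STK19_KO1 (2.96 ± 0.45), 1.18 against 0.357 CPM in STK19_KO2 (1.76 ± 0.43) and 0.605 against 0.161 CPM in WT (1.92 ± 0.49). Other gains were OASL (1.60 ± 0.65) and GBP2 (1.45 ± 0.57) in STK19_KO1, the exonuclease ISG20 (1.4 ± 0.17) and DHX58 (0.72 ± 0.20) in STK19_KO2, UBA7 (1.37 ± 0.23) and SOCS1 (1.2 ± 0.21) in WT, and IFI35 (0.74 ± 0.15), DHX58 (0.49 ± 0.17) and IRF5 (0.24 ± 0.09) in CSB_KO. Several of these rest on few counts, since GBP2, OASL, TLR3 and IFI44L were each under 1 CPM in the groups compared.

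Over the whole series no single group held the extremes of all members. OAS3 was highest in WT at 4 h in DMSO (24.8 CPM) and lowest in STK19_KO1 at 20 h with ATRi (0.478 CPM), and BST2 was highest in CSB_KO at 4 h in DMSO (11.3 CPM) and lowest in STK19_KO2 at 20 h with ATRi (0.0815 CPM). ISG15 was highest in STK19_KO1 at 20 h with ATRi (26.6 CPM) and lowest in STK19_KO2 at 0 h (2.26 CPM), and IRF1 highest in STK19_KO2 at 20 h with ATRi (50.1 CPM) and lowest in WT at 0 h (7 CPM). IFIT1 was highest in WT at 0 h (4.70 CPM) and lowest in WT at 20 h with ATRi (0.437 CPM). IFI6 and IFITM3 were both highest in CSB_KO at 20 h in DMSO, at 22.3 and 3.21 CPM. With the 24 groups in order of their means, IRF9 overlapped its neighbour at all 23 steps, IRF1 at 16, OAS3 and IFI6 at 17, ISG15 at 18, BST2 at 19, IFIT1 at 20 and IFITM3 at 21.

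The genes whose group means ran most like each member were sought among 11755 genes with a symbol and a mean log2 CPM of at least 1, by Pearson r over the 24 groups. For OAS3 they were PRXL2A (0.977), ALDH1L2 (0.976) and LDOC1 (0.975), for BST2 CTSZ (0.967), CYP4X1 (0.964) and KIFC3 (0.958), and for IFITM3 its neighbour in sequence IFITM2 (0.976) and KIFC3 (0.954). For IRF1 they were HBEGF (0.987), RETSAT and SERTAD1 (0.977 each), for ISG15 KCND1 (0.928), ZNF577 (0.923) and ZNF581 (0.919), and for IFIT1 ARL6IP5 (0.951), SDC3 (0.939) and ABRAXAS1 (0.932). IFI6 ran with TMBIM6 and SF3B4 (0.945 each) and PGRMC1 (0.934). IRF9 had no close match, with THYN1 (0.726) first. No member was among the 3 genes most like another member. The 24 means share lines and libraries, and a high r over them says nothing of function.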

How the data were processed

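The deposited table holds expected counts per gene, which the authors made with STAR and RSEM on GRCh38, per the submitters' processing notes (those also name deepTools 3.5.1). The versions of STAR and RSEM, the annotation release and the strand setting are not given in the sources used here. Its values are whole numbers for 19324 genes, of which 572 carry no symbol. RNA was prepared with a directional polyA kit, per the labels. Sequencing depth was 36.5 to 212.9 M counts per library.

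Genes with too few counts (minimum count 10, minimum total 15) were dropped, leaving 15470. All 72 libraries entered 1 quasi-likelihood fit in edgeR 4.0.16 (R 4.3.3) with TMM scaling, with 28 contrasts and Benjamini-Hochberg adjustment over all tested genes at 0.05. The fit was tested on simulated counts. Alternatives were DESeq2 1.42.0, RLE scaling, no filter, a replicate block, a fit to only the groups compared, and leaving out libraries.

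The members and gene lists were chosen with earlier results of these data known. Other pathway genes named are, per line at 0 h and 20 h, up to 3 called gains and 3 called losses of largest size, plus OAS, IFIT, IFITM, IRF and STAT2 relatives of the members. Genes most like a member are the 3 with the highest r. Some genes these rules or lists select are not reported here. The span of 15 kb for short genes and the note on CD14 were chosen after their values were seen. Promoter and gene annotation came from RefSeq (GRCh38.p14) and GENCODE 29.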

Additional observations from a re-analysis of the deposited data

Results flagged for a closer look

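The response of 7 members at 20 h differed between an edited line and WT in edgeR's interaction test, over 3 libraries per group. These 15 of 32 differences are given as log2 values (edited line minus WT). For 20 h in DMSO, 30.9% of all genes were higher and 36.3% lower in CSB_KO, and 22.8% and 32.7% in the STK19 mean. For ATRi at 20 h the shares were 24.7% and 26.9% in CSB_KO and 20.7% and 20.2% in the STK19 mean.

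For 20 h in DMSO against 0 h, CSB_KO exceeded WT in IFI6 (1.51 ± 0.13), IRF1 (1.16 ± 0.11) and ISG15 (0.57 ± 0.20), and IRF9 was lower (-0.54 ± 0.18). The mean of the STK19 clones exceeded WT in IFI6 (1.05 ± 0.12) and IRF1 (0.75 ± 0.10), and OAS3 was lower (-0.51 ± 0.17). For ATRi against DMSO at 20 h, CSB_KO minus WT was 1.70 ± 0.26 in IFIT1, 1.17 ± 0.27 in BST2, 0.66 ± 0.19 in IRF9, 0.41 ± 0.16 in OAS3 and -0.77 ± 0.10 in IRF1. The STK19 mean minus WT was 0.96 ± 0.17 in ISG15, 0.62 ± 0.23 in IFIT1 and -0.31 ± 0.09 in IRF1. The 0 h and DMSO libraries of WT enter several of these differences.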

How the results depend on the processing

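No called value reversed direction under any setting run, while values that were not called changed sign in some (IRF9 in CSB_KO against WT at 0 h ran from -0.19 to 0.11). Of 129 called values, 89 were called in every setting and 40 lost their call in at least 1, while 16 of 95 values not called gained one. For ATRi against DMSO at 4 h the 1 member called became 2 without the 5 libraries that stand apart, and ranged from 0 to 2 over the fits that left out replicates. For STK19_KO2 against STK19_KO1 the 4 calls became 2 to 4 when replicates were left out, and 5 without the libraries that stand apart. RLE scaling lost 4 calls and gained 2, no filter lost 7 and gained 2, DESeq2 lost 1 and gained 6, and fitting only the groups compared lost 10 and gained 3. Leaving out replicate 1, 2 or 3 throughout lost 15, 28 and 21 calls and gained 9, 1 and 1. Among calls so lost, those that moved by over 1.5 times and held without any 1 library were ISG15 in STK19_KO2 against WT at 0 h (-0.30 without replicate 3) and IFIT1 in CSB_KO at 4 h in DMSO (-0.26 without replicate 1). Smaller moves that lost a call with a whole replicate number left out, and not with any 1 library, concerned OAS3 at 3 h, BST2 at 4 h and IFI6 under ATRi in CSB_KO, IFITM3 and IRF9 at 4 h in WT, IFITM3 under ATRi in STK19_KO2, and the IRF9 difference of CSB_KO minus WT under ATRi. Without replicate 3 the ISG15 difference of CSB_KO minus WT at 20 h was 0.27, and without replicate 2 the IFIT1 difference of the STK19 mean minus WT under ATRi was 0.25, and neither was called. The cause of these changes was not tested, though fewer libraries were fitted in the last.

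The main fit did not pair libraries by replicate number. In 0 of 24 comparisons were all correlations of same-numbered deviations over 0.1 (range -0.065 to 0.256), a mark that cannot show that numbers are unrelated. In 8 of 24 every library correlated best with its own number. The highest correlation was for replicate 1 in WT, 3 h against 0 h, and both of these libraries stood apart. Whether a number marks a common culture or day was not tested. With a replicate block the calls were 16 for knockout against WT, 4 between the clones, 20 at 3 h, 25 at 4 h in DMSO, 25 at 20 h, 1 and 24 for ATRi at 4 h and 20 h, and 15 interactions. OAS3 in STK19_KO1 at 4 h in DMSO was the call gained (0.45). Depth limits OAS1 and the ligands, and 3 libraries per group limit the rest.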
